A study of Mus musculus with 2 samples.

Results

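The imprinted Dlk1-Dio3 locus of the mouse carries one of the largest groups of miRNA genes in mammals, and the values of its miRNAs were described here in microvesicles (MVs) shed by mesenchymal stem cells (MSCs). The members were every array entry whose name carries 1 of 46 miRNA numbers assigned to this locus, whatever the letter or arm. Of the 831 deposited entries, 64 met this rule, and they covered 43 of the 46 numbers; miR-323, miR-369 and miR-370 were not among the entries analysed here. In the RefSeq annotation of mouse (GRCm38.p6), all 64 entries belonged to hairpin genes on chromosome 12 between Dlk1 and Dio3. They came from 44 hairpins, and 61 entries were matched by mature name and 3 (miR-376c-3p, miR-487b-3p and miR-539-3p) by gene symbol. Of the 64 entries, 1 lists more than a single name, miR-299a-5p together with miR-299b-5p.

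The MVs came from the supernatant of bone marrow MSCs of male C57BL/6 mice aged 4 weeks, grown for 48 h in DMEM/F12 with serum. EPO-MVs were from MSCs given 100 IU/ml erythropoietin (EPO), the hormone that drives red cell formation, and MSC-MVs were from MSCs given none. There was 1 array of each, an LNA array whose locked nucleic acid probes bind short RNAs tightly. No replicate spread was therefore at hand for any ratio below, no test was run, and EPO and array cannot be told apart. These are RNAs of vesicles, so that a change in loading, in cell expression or in the mix of vesicles cannot be told apart either.

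At this locus, genes are expressed from a single parental copy. Dlk1, Rtl1 and Dio3 code for proteins and are read from the paternal chromosome, whereas Meg3, Rian and Mirg are long noncoding RNAs read from the maternal one, and the miRNAs are cut from these maternal transcripts. The hairpins next to Rtl1 lie antisense to it and include miR-127, miR-136, miR-431, miR-433 and miR-434, which can pair perfectly with the Rtl1 transcript. Further along lies the large miR-379/miR-410 cluster, known for its expression in brain, placenta and embryonic tissue. A miRNA finds its targets mainly through its seed, bases 2 to 8 of the mature strand.

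The mature sequences of the members that the counts of changed miRNAs turn on are shown first, since their seeds are what a target would meet. Sequences are from RefSeq (GRCm38.p6), written 5′ to 3′, with the seed in capitals. The first 5 exceeded their MSC-MV value by at least 1.5-fold and were the only such members with intensities of 30 steps or more on both arrays (the unit is explained with the levels). The other 6 include the 4 mature strands behind the largest ratios, the lone member that was lower, and the 3p strand of miR-540.
miR-376b-3p: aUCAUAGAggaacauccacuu
miR-679-5p: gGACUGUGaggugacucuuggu
miR-381-5p: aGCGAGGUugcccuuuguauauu
miR-666-5p: aGCGGGCAcagcugugagagcc
miR-341-3p: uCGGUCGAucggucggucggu
miR-382-3p: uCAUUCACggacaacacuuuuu
miR-299a-3p: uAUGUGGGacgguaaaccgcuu
miR-299a-5p: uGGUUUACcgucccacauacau
miR-299b-5p: gGUUUACCgucccacauacau
miR-540-3p: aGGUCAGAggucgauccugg
miR-410-3p: aAUAUAACacagauggccugu
None of these 11 seeds equals another. The names miR-299a-5p and miR-299b-5p share an array entry although miR-299b-5p lacks the first base of miR-299a-5p, which shifts its seed by 1 position.

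Seeds were diverse across the whole cluster. The 61 member names with a sequence had 60 distinct seeds, and only miR-410-5p and miR-494-5p had the same one. Many of these hairpins are known to have arisen by duplication of one another, and longer runs of letters recurred outside the exact seed. GUUGCCC was the run of 7 letters found in the most members, read on the mature strand only, and it occurs in 5 of the 61 members (8.2%) and in 0 of 620 mature sequences of the other entries. UGGUUGACCA, of 10 letters, was the longest run held by at least 3 members (4.92%), and it too occurs in 0 of the 620. Both runs were picked because members hold them, so their absence elsewhere is a description. Both sets are shown with these letters in capitals, since the letters are what these members share.
miR-377-5p: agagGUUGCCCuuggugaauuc
miR-381-5p: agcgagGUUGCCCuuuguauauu
miR-495-5p: gaaGUUGCCCauguuauuuuucg
miR-496a-5p: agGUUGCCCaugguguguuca
miR-543-5p: aaGUUGCCCgcguguuuuucg
miR-134-5p: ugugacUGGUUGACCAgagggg
miR-380-5p: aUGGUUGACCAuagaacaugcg
miR-758-5p: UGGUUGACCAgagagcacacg
In the first set, miR-381-5p (ratio of EPO-MV to MSC-MV 1.66) and miR-496a-5p (1.82) passed 1.5-fold as higher in EPO-MVs, while miR-377-5p (1.07), miR-495-5p (1.04) and miR-543-5p (1.11) stayed near 1. The 2 that passed were dim, with 77 and 44 steps for miR-381-5p and 25 and 13 for miR-496a-5p. With quantile normalization both were below 1.5, at 1.49 and 1.42, so a difference between related strands is not established. In the second set the ratios were 1.199 for miR-134-5p, 1.42 for miR-380-5p (12 and 8 steps) and 1.44 for miR-758-5p, all under 1.5.

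Intensities are given in steps. The lowest deposited value of an array is 1 step, and all its other values were whole multiples of that, within 0.0001 of the value. A normalized intensity of 1 equals 471 steps on the EPO-MV array, or 447 on the other array, so a ratio of normalized values is 0.949 times the ratio of steps. Ratios in the text are of normalized values, EPO-MV over MSC-MV. The values used here include no background measure. Intensities of different probes are not amounts of miRNA, so ranks and intensity groups say only where a probe lies in the range of the array.

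The cluster ran from the floor of the arrays to ranks near the top. miR-544-3p was at 1 step on both, and the highest member, miR-433-5p, took rank 21 among all entries with EPO and rank 24 without. It had 8118 and 7986 steps, against 130919 and 130926 for the brightest entry of each array. The median member had 64.5 steps in EPO-MVs and 45.5 in MSC-MVs, against medians of 97 and 87 over all 831 entries. When all entries were put in order of mean log2 intensity and divided into 4 groups, 18 members were in the dimmest group, 24 in the next, 11 in the next and 11 in the brightest. On the arrays, 9 members were among the 100 brightest entries in EPO-MVs and 6 in MSC-MVs.

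**Figure D1:**
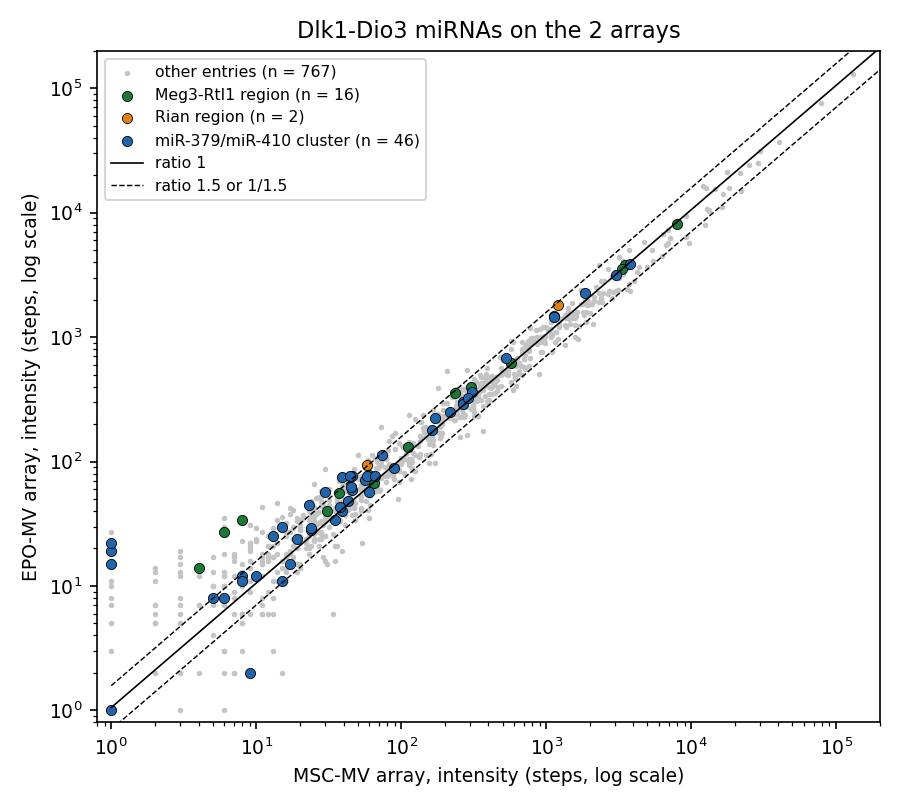
Intensity of each entry on the MSC-MV array (x axis) and the EPO-MV array (y axis), in steps on log scales, with 1 array per axis. Coloured points are the 64 Dlk1-Dio3 entries by place in the locus, grey points the other 767; the solid line is a ratio of 1 and the dashed lines are 1.5-fold. Coloured points leave the dashed band only where both values are below 100 steps.

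The 10 brightest members stayed within 1.5-fold between the arrays. Among those next to Rtl1, miR-433-5p had 8118 steps in EPO-MVs and 7986 in MSC-MVs (ratio 0.965). In the same stretch, miR-493-5p had 3783 and 3473 steps (1.03). For Mir665, the 3p strand had 3556 and 3330 steps (1.01) and the 5p strand 1475 and 1126 steps (1.24). These 4 strands come from hairpins inside the annotated span of Rtl1, and their ratios stayed within 1.5-fold.

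From the miR-379/miR-410 cluster, miR-668-3p had 3860 steps in EPO-MVs and 3806 in MSC-MVs (ratio 0.963). Its neighbour on this list, miR-487b-3p, had 3136 and 3052 steps (0.975). The values of miR-300-5p were 2257 and 1848 steps (1.16). All 3 lay within 1.2-fold between the arrays.

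The remaining bright members leaned towards EPO-MVs. miR-667-3p had 1444 steps with EPO and 1135 without (ratio 1.21), and miR-544-5p had 674 and 529 steps (1.21). The hairpin of miR-882 lies past Rian, outside its annotated span, and this miRNA had 1820 and 1208 steps, the highest ratio of the 10 at 1.43. Of these 10 members, 7 were above 1 and none reached 1.5-fold. The side of 1 depended on the scaling for those nearest to it. With quantile normalization miR-433-5p (1.175), miR-668-3p (1.038) and miR-487b-3p (1.096) were above 1. After re-centring on the median of all entries, miR-493-5p (0.9985) and miR-665-3p (0.9789) were below it. The mature sequences of 4 of these bright members are given here with seeds in capitals; the seed of miR-882 is also that of miR-3473a, which is not of this locus and had a ratio of 1.12.
miR-433-5p: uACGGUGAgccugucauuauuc
miR-668-3p: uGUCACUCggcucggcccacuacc
miR-493-5p: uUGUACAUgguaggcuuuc
miR-882: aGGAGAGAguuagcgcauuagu

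Of the 64 members, 16 differed by at least 1.5-fold, 15 of them higher in EPO-MVs and 1 lower. In all 831 entries, 25.4% differed by this much, 17.8% being higher and 7.58% lower. The members' share in either direction, 25%, was thus near the background, the share higher (23.4%) was somewhat above it and the share lower (1.56%) was below it. The split between directions depended on the scaling. With quantile normalization 10 members were higher and 3 lower, beside 95 and 95 of all entries, and with removal of a lowess curve 11 were higher and 4 lower, beside 92 and 96. All 16 lay in the dimmer 2 of the 4 intensity groups, and 11 of the 16 had under 30 steps on at least 1 array. In those 2 groups 38.1% of the members changed (35.7% higher, 2.38% lower). Of the other entries there, 42.1% changed (32.2% higher, 9.92% lower), so the share higher was close to that of equally dim entries. Among the 43 members with 30 steps or more on both arrays, 5 were higher and 0 lower (11.6% changed), beside 34 higher and 28 lower of the 573 entries of that brightness (10.8% changed). With at least 60 steps on both arrays, none of 26 members passed, against 40 of 463 entries.

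**Figure D2:**
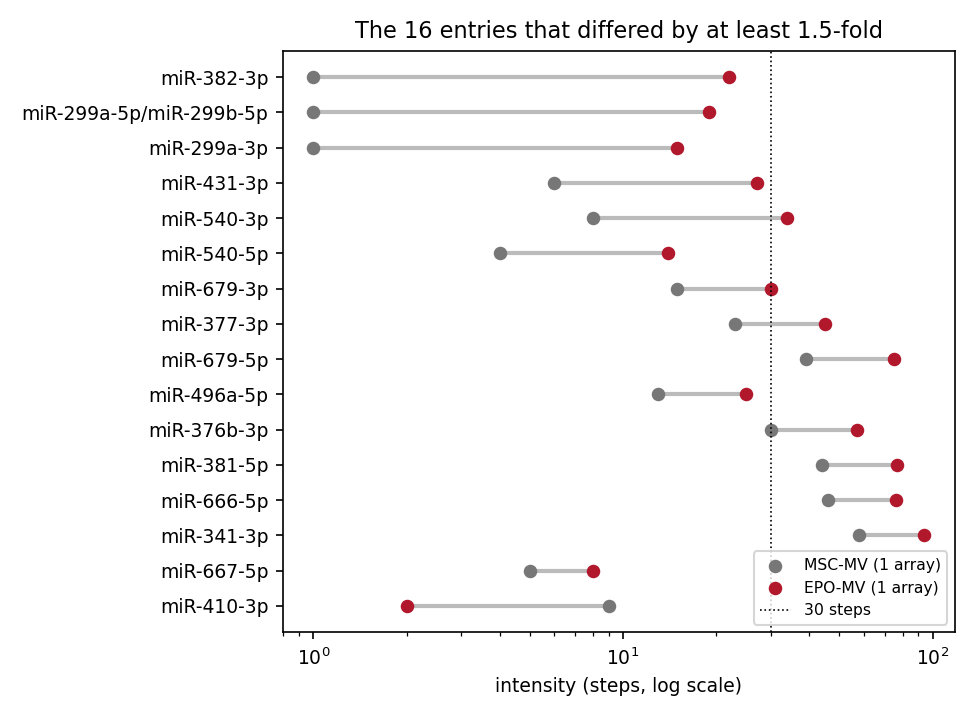
Intensity in steps (log scale) on the MSC-MV array (grey) and the EPO-MV array (red) for the 16 members that differed by at least 1.5-fold in normalized value, ordered by ratio, with 1 array per colour; the dotted line marks 30 steps. Only miR-679-5p, miR-376b-3p, miR-381-5p, miR-666-5p and miR-341-3p lie at or above that line on both arrays.

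The 5 brighter differences were all of moderate size. miR-376b-3p, of a family known to be edited from adenosine to inosine in its seed, had 57 steps in EPO-MVs and 30 in MSC-MVs (ratio 1.80). miR-679-5p had 75 and 39 steps (1.82), and miR-381-5p had 77 and 44 steps (1.66). The values of miR-666-5p were 76 and 46 steps (1.57). Inside Rian, miR-341-3p had 94 and 58 steps (1.54), the highest intensities of the changed members. When 0.0573 (the 25th percentile of the deposited values) was added to both arrays as a pseudocount, the ratio of each of these 5 was below 1.5. With quantile normalization and with removal of a lowess curve, miR-341-3p (1.39 and 1.42), miR-381-5p (1.49 and 1.49) and miR-666-5p (1.37 and 1.41) were also below it, and miR-341-3p was at 1.49 after re-centring on the median of all entries.

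The largest ratios rested on the floor of the MSC-MV array, its 1 step. miR-382-3p had 22 steps with EPO and 1 without (ratio 20.9). The entry shared by miR-299a-5p and miR-299b-5p had 19 and 1 steps (18.0), and miR-299a-3p had 15 and 1 steps (14.2). Each of these values in EPO-MVs was under 30 steps. With the pseudocount the ratios were 1.75, 1.64 and 1.497, so that miR-299a-3p no longer passed. Quantile normalization gave 12.9, 11.1 and 8.36, and lowess gave 11.8, 10.0 and 7.67. The fourth member at 1 step in MSC-MVs, miR-544-3p, was also at 1 step in EPO-MVs (0.949).

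The study followed the strand miR-299a-3p further and reported it as up-regulated in EPO-MVs (n = 3), without naming it among the significant changes. On the arrays, the 3 miR-299 entries gave different pictures. Under the single name miR-299a-5p the arrays gave 252 steps with EPO and 217 without (ratio 1.10), whereas the entry that pairs this name with miR-299b-5p gave 19 and 1. The sources used here give no probe sequence for either entry. Among the miR-299 entries, then, the one with intensities above 30 steps was nearly level and both dim ones were higher in EPO-MVs.

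Another group of dim members was higher without touching the floor. In the stretch of Rtl1, miR-431-3p had 27 steps in EPO-MVs and 6 in MSC-MVs (ratio 4.27), miR-540-3p had 34 and 8 steps (4.03), and miR-540-5p had 14 and 4 steps (3.32). In the miR-379/miR-410 cluster, miR-679-3p had 30 and 15 steps (1.90) and miR-377-3p had 45 and 23 steps (1.86). Lower still, miR-496a-5p had 25 and 13 steps (1.82), and miR-667-5p had 8 and 5 steps (1.52). Each of these 7 had under 30 steps in MSC-MVs. With the pseudocount miR-431-3p (1.62) and miR-540-3p still passed, and the other 5 were below 1.5, at 1.31 for miR-540-5p, 1.33 for miR-679-3p, 1.41 for miR-377-3p, 1.28 for miR-496a-5p and 1.09 for miR-667-5p. With quantile normalization and lowess, miR-496a-5p (1.42 and 1.42) and miR-667-5p (1.17 and 0.931) were below it as well, and miR-540-5p passed at 2.09 and 2.13.

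A single member was lower in EPO-MVs by this threshold. It was miR-410-3p, the strand at the Dio3 end of the cluster, with 2 steps in EPO-MVs and 9 in MSC-MVs (ratio 0.211), and with the pseudocount its ratio was 0.795 and no longer passed. It was 0.13 with quantile normalization and 0.116 with lowess. Just outside the threshold lay miR-434-3p on the higher side, with 357 and 234 steps (1.45), and miR-376b-5p on the lower side, with 11 and 15 steps (0.696). The nearest member inside on the higher side was miR-667-5p. With quantile normalization and lowess, miR-376b-5p (0.499 and 0.513) and miR-411-3p (0.624 and 0.64) passed as lower, as did miR-544-3p (0.346) with lowess.

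Below the threshold, most members lay on the EPO-MV side. By any amount, 52 of the 64 members (81.2%) had a ratio above 1, whereas 56.1% of all entries did. The median log2 ratio was 0.27 over the members and 0.05 over all entries. This lean was not confined to the dim members. Of the 22 members in the brighter 2 intensity groups, 19 were above 1 (86.4%), with a median log2 ratio of 0.15, while 168 of the 394 other entries there were (42.6%), with a median of -0.06. In the third group 11 of 11 members were above 1, against 99 of 197 other entries, and in the brightest group 8 of 11 were, against 69 of 197. The differences were small in size, since the ratios of these 22 members ran from 0.963 to 1.45 and none reached 1.5-fold, against 38 of the 394 others. Under other scalings 2 of the 22 passed as higher, miR-434-3p at 1.502 with scaling to the 75th percentile and miR-882 at 1.53 with lowess.

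**Figure D3:**
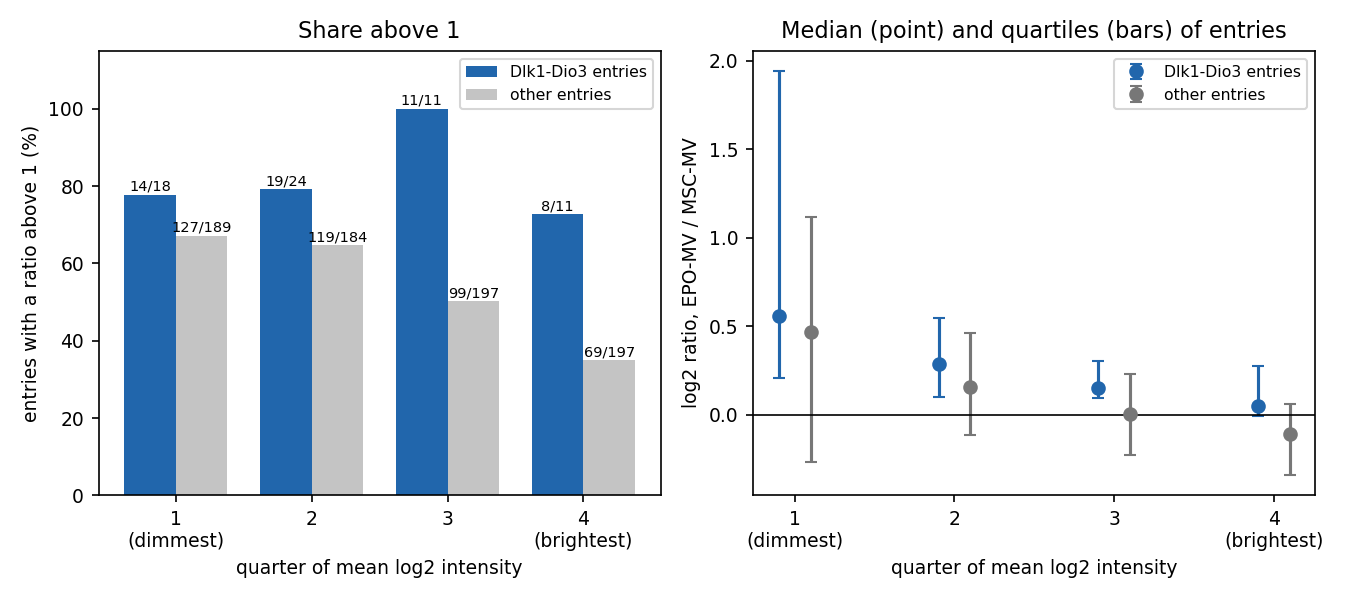
Left, percent of entries with an EPO-MV to MSC-MV ratio above 1 in 4 groups of mean intensity, for Dlk1-Dio3 entries (blue) and other entries (grey), with the counts above the bars. Right, median (point) and quartiles (bars) of the log2 ratio over the same entries, which describe spread over miRNAs and not over replicates. The blue share is the higher one in each group, with 11 of 11 in group 3.

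The size of this lean depended on how the arrays were scaled against each other, and under each of 5 scalings a larger share of members than of other entries was above 1. Of the 22 brighter members, 15 were above 1 after re-centring on the median of all entries (135 of the 394 others), 21 after quantile normalization (182 of 394) and 22 after removing a lowess curve (193 of 394). Re-centring on the brighter entries gave 20 (187 of 394) and scaling to the 75th percentile gave 21 (197 of 394). Over all 64 members the count above 1 ran from 44 (68.8%) with quantile normalization, where 47.9% of all entries were above 1, to 56 (87.5%) with scaling to the 75th percentile, where 61% were. The members' median log2 ratio was 0.14 with quantile normalization and 0.13 with lowess, beside 0.00 over all entries under each. Members that share a hairpin or a transcript are not independent of each other, and the arrays of each kind of MV number 1, so these shares describe this pair of arrays.

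Among the brighter members that made up this pattern, miR-434-3p had 357 and 234 steps (ratio 1.45), miR-758-5p 112 and 74 steps (1.44), and miR-673-3p 398 and 305 steps (1.24). Lower ratios were those of miR-485-3p, with 223 and 172 steps (1.23), miR-494-5p, with 360 and 306 steps (1.12), and miR-136-5p, with 131 and 112 steps (1.11). Near 1 were miR-329-3p with normalized intensities of 0.635 and 0.593 (1.07), miR-541-3p with 325 and 290 steps (1.06), miR-495-5p with 179 and 164 steps (1.04), miR-654-3p with 290 and 267 steps (1.03) and miR-337-3p with 618 and 575 steps (1.02). All 11 of these named members were above 1 and below 1.5.

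The entries were also counted along the locus, beside 56.1% of all entries above 1, 17.8% at least 1.5-fold higher and 7.58% lower. From Meg3 through the stretch of Rtl1, 14 of 16 entries were above 1 and 3 (18.8%) passed 1.5-fold as higher, with a median log2 ratio of 0.31. Rian and the hairpin past it gave 2 entries, miR-341-3p and miR-882, both above 1. In the miR-379/miR-410 cluster, 36 of 46 entries were above 1, 11 (23.9%) were at least 1.5-fold higher and 1 (2.17%) was lower, with a median of 0.24. Counting only entries of the brighter 2 intensity groups, 7 of 8 in the Meg3 and Rtl1 stretch and 11 of 13 in the miR-379/miR-410 cluster were above 1, with medians of 0.10 and 0.14. Of the 5 hairpins named above as antisense to Rtl1, miR-127 gave an entry, miR-127-3p, that had 62 and 45 steps (ratio 1.31) and stayed within 1.5-fold, as did miR-136-5p, miR-433-5p, miR-431-5p and both strands of miR-434, and miR-431-3p passed. Elsewhere in the annotated span of Rtl1, both strands of miR-540 passed.

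**Figure D4:**
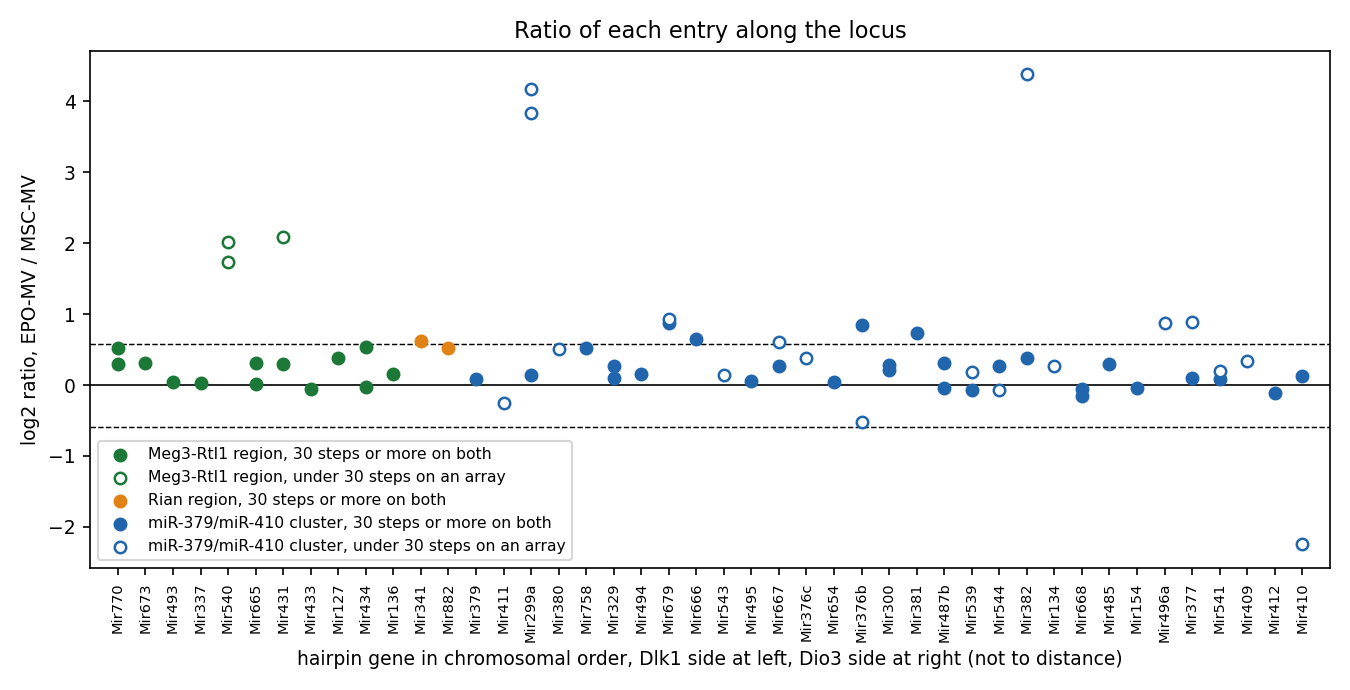
The log2 ratio of EPO-MV to MSC-MV of each of the 64 entries, with 44 hairpin genes in chromosomal order from the Dlk1 side to the Dio3 side, evenly spaced and not drawn to distance. Open symbols had under 30 steps on at least 1 array, and the dashed lines are 1.5-fold. Points above 0 occur along the whole order, and those beyond a log2 ratio of 1 are open symbols.

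For 19 hairpins both the 5p and the 3p strand were listed singly, which gave a pair of values from the same precursor. Both strands were above 1 in 12 of them, both were below 1 in 1 (miR-668), and the strands lay on opposite sides in 6. Of all 64 members 81.2% were above 1, so these counts do not say whether strands of the same hairpin go together. In 7 hairpins all 4 values reached 30 steps, and there the strands' log2 ratios differed by a median of 0.22 and at most by 0.57 (miR-434). In the other 12 hairpins the median difference was 0.57. Both strands passed 1.5-fold in 2 hairpins, miR-540 and miR-679, and all 4 of these strands were higher in EPO-MVs.

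In 7 hairpins a single strand passed. The 3p strand did in 6 of them, with the 5p strand within 1.5-fold. For miR-382 the 5p strand had 62 and 45 steps (ratio 1.31). For miR-431 it had 40 and 31 steps (1.23), and for miR-410 it had 76 and 66 steps (1.09). For miR-377-5p the values were 43 and 38 steps (1.07). The others were miR-299a and miR-376b, described above. In the remaining hairpin, miR-667, the strand that passed was the 5p strand, at 8 and 5 steps. In these 7 hairpins the strand that passed had under 30 steps on at least 1 array in all but miR-376b, whose 3p strand had 30 steps in MSC-MVs.

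**Figure D5:**
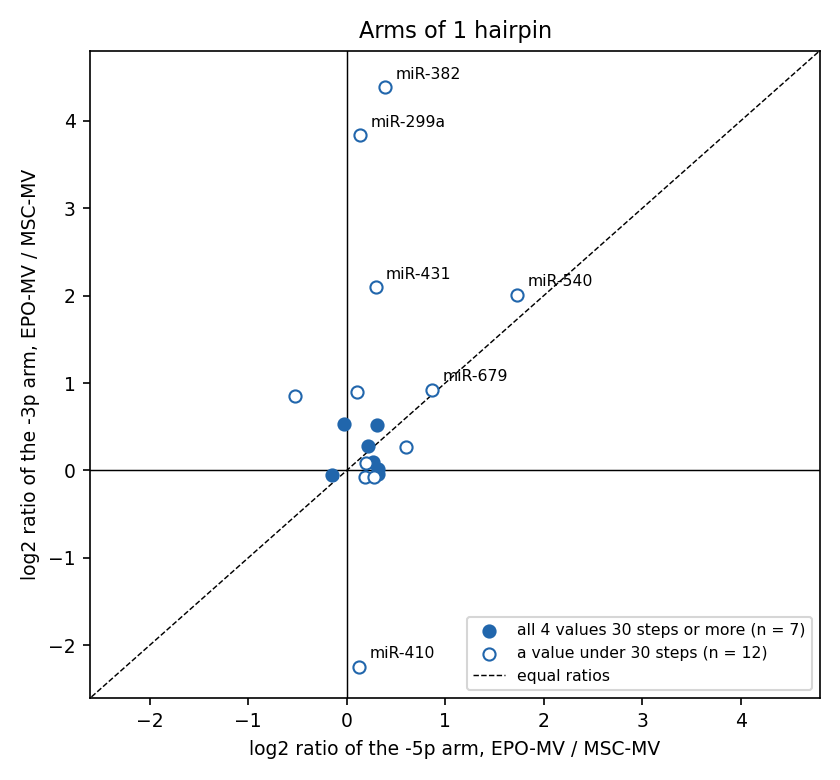
The log2 ratio of EPO-MV to MSC-MV of the 5p strand (x axis) and the 3p strand (y axis) of 19 hairpins with both listed singly. Filled points had 30 steps or more in all 4 values, and open points had a value under 30 steps. The dashed line marks equal ratios, from which the strands of filled points differ by at most 0.57 in log2 ratio. Filled points lie near 0 on both axes, so their nearness to the line is partly a matter of the scale. Named are the hairpins with a strand far from 0, among them miR-382, miR-299a and miR-410, which leave the line vertically.

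A seed is shared with entries outside the 64 by 7 members, and the ratios of such pairs lay on the same side of 1 for some and on opposite sides for others. For miR-329-3p the partner is miR-362-3p, of the X-linked Clcn5 intron, with 177 steps in EPO-MVs and 367 in MSC-MVs (ratio 0.458), while miR-329-3p stayed at 1.07. Both are shown because they carry the same seed and had unlike ratios.
miR-329-3p: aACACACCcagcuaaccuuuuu
miR-362-3p: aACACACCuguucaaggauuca
For miR-410-3p, the one lower member, the partners are miR-344d-3p, with 12 and 6 steps (1.90), and miR-344e-3p, with 179 and 173 steps (0.982). For miR-496a-5p (1.82) the partner is miR-453, of the same locus but outside the 64 entries, with 18 and 7 steps (2.44). The remaining partners had ratios of 0.738 (miR-672-5p with miR-377-5p), 1.16 (miR-1983 with miR-412-3p) and 0.980 (miR-467h with miR-668-5p).

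The origin of the MVs was checked on other miRNAs. All 7 listed stromal miRNAs, among them miR-143-3p and miR-199a-3p, were bright, between 3313 and 37150 steps with EPO and between 4228 and 40369 without, and their ratios of 0.648 to 0.873 were all below 1. Most bright entries were below 1 as well. Outside the cluster, 69 of 197 entries in the brightest of the 4 intensity groups were above 1, with a median log2 ratio of -0.11. The 6 listed blood cell miRNAs were not at the floor, with 160 to 20714 steps with EPO, 87 to 21839 without, and ratios of 0.658 to 1.75. None of these defining blood cell markers was near 0, but the values hold no background measure, so this does not show that each was present. Summed over the same probes on each array, the blood list had 31826 steps with EPO and 35734 without, and the stromal list had 99208 and 120482. The 3 neural miRNAs had at most 99 steps, with ratios of 1.90 for miR-9-5p, 1.29 for miR-124-3p and 0.771 for miR-128-3p. The study reports that its MSCs were CD45-negative by flow cytometry and that the MVs were collected from medium with fetal bovine serum. The source of these miRNAs was not tested. Nor was the part of these miRNAs, or of the cells or serum they may come from, in the ratios of the Dlk1-Dio3 miRNAs.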

How the data were processed

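RNA of 1 EPO-MV and 1 MSC-MV preparation was labelled with Hy3 and hybridized to the miRCURY LNA Array v.18.0. The authors scanned the arrays with a GenePix scanner, averaged replicate spots and applied median normalization, with a factor from miRNAs of intensity 30 or more in all samples. The deposited values are these normalized intensities on a linear scale. The channel read, background correction and choice of the listed miRNAs are not given in the sources used here, and coordinates are left out because the build used for the array files is not given there either.

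Ratios of EPO-MV to MSC-MV were computed without a filter or pseudocount, and members past 1.5-fold in either direction (relative tolerance 1e-06) were counted as changed, after the fold change filter of the methods. With 1 array per condition there was no test, and the number of arrays limits the precision. The alternatives concerned the threshold, dim entries, centring, normalization and choice of members. Named members are those changed, the 10 brightest, the other strand of each, all miR-299 entries and those nearest the threshold; other members are named after their values were seen. The members and lists were chosen with earlier results of these data known. Names and sequences were matched to RefSeq (GRCm38.p6). Calculations ran in Python 3.11.15 with numpy 2.4.6 and pandas 2.3.3, lowess came from statsmodels 0.14.6, and correlations from scipy 1.17.1.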

Additional observations from a re-analysis of the deposited data

How the results depend on the processing

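With the deposited values 16 members changed, 15 higher and 1 lower, with a median log2 ratio of 0.27. The number changed moved most with the threshold and with the treatment of dim entries, and the number lower with the normalization. At 2-fold 7 changed (6 higher, 1 lower), beside 10.6% of all entries (8.06% higher, 2.53% lower). At 1.2-fold 36 changed (34 higher, 2 lower), beside 55.4% of all entries (33.5% higher, 21.9% lower). With the pseudocount of 0.0573, which shrinks the ratios of dim entries by construction, 4 changed (4 higher, 0 lower, median 0.14). Of all entries 6.5% did (3.49% higher, 3.01% lower). Fewer entries were counted under the filters. A minimum of 30 steps on both arrays left 5 (5 higher, 0 lower), and the same minimum on either array left 8 of 46 (8 higher, 0 lower; 16.2% of all entries so kept). A minimum of 60 steps on both left 0 (0 higher, 0 lower; median 0.13), and likewise 0 above the median intensity (0 higher, 0 lower; median 0.15). Quantile normalization gave 10 higher and 3 lower members (median 0.14) and the removal of a lowess curve gave 11 and 4 (median 0.13). Under each of these, 5 of the 16 calls were lost, those of miR-341-3p, miR-381-5p, miR-496a-5p, miR-666-5p and miR-667-5p; the cause was not tested. Under lowess miR-667-5p turned to 0.931 and miR-882 passed as higher at 1.53. Re-centring, scaling to the 75th percentile and the choice of members left the number changed between 14 and 17 members. Under these settings between 24.8% and 25.9% of all entries changed. No changed member passed the threshold in the opposite direction under any scaling. The values used hold no background, so no member can be called above it. No paired analysis was possible because there was 1 array of each kind.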

Other observations

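Other miRNAs of the same locus, whose numbers the rule does not hold, were listed in 10 entries. Of these, 8 had a ratio above 1, 4 passed 1.5-fold upwards and 2 downwards, and 8 of the 10 had under 30 steps on at least 1 array. Of all entries 25.4% passed 1.5-fold in either direction, and of the entries outside the cluster in the dimmest of 4 intensity groups, where 7 of the 10 lay, 61.9% did. The brightest was the entry of miR-3070a-5p and miR-3070b-5p, with 908 steps in EPO-MVs and 594 in MSC-MVs (ratio 1.45). The highest ratio was that of miR-3070b-3p, with 19 and 3 steps (6.01), followed by miR-453 with 18 and 7 steps (2.44), miR-1193-3p with 36 and 15 steps (2.28) and miR-1188-3p with 21 and 13 steps (1.53). The lower entries were miR-3071-5p, with 7 and 11 steps (0.604), and miR-1188-5p, with 11 and 16 steps (0.652).

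Across the 61 members with a sequence, the log2 ratio had a Spearman correlation of 0.26 with the GC content of the mature strand and of -0.29 with mean intensity. Across 619 other entries these were 0.24 and -0.34. The entries of each set share the same pair of arrays, and these correlations are descriptions across miRNAs, which are not replicates.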
